A study of Mus musculus with 9 samples.

Results

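The genes described here are the 4 tissue inhibitors of metalloproteinases, Timp1, Timp2, Timp3 and Timp4, and Reck, a membrane-anchored inhibitor of the same proteases. They were chosen by name: every probe whose platform symbol is one of these 5 was taken. That gave 5 probes of 26423, or 5 genes of 17742 named on the array, and with 1 probe per gene none has a second probe as a check. Colon RNA came from BALB/c females, with 3 arrays in each of 3 groups. Mock mice were untreated. In Sham mice, azoxymethane (AOM), a colon carcinogen, was injected intraperitoneally at 12.5 mg/kg on day 1. Dextran sodium sulfate (DSS), a polymer that damages the colon epithelium, was given at 2.5% in the drinking water for 5 days beginning on day 8. A rest of 16 days on normal water followed, and the DSS cycle was run 3 more times. Vanillin mice went through AOM and DSS in the same way and were also dosed orally with vanillin, at 100 mg/kg, on 91 days in a row. No group received vanillin without AOM/DSS. Whether arrays of one group are different mice is not stated in the labels, so the p-values rest on differences among arrays that could be technical only.

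Matrix metalloproteinases (MMPs) cut collagen, other matrix proteins and many cell surface molecules. TIMPs are small secreted proteins that fit into the active site of these enzymes and block them. TIMP1 is the classically inducible member and rises in inflamed and wounded tissue. TIMP2 blocks MMPs and, bound to MMP14, also takes part in the activation of the MMP2 proenzyme. TIMP3 stays bound to the matrix and also inhibits the sheddase ADAM17 and aggrecanases of the ADAMTS family. TIMP4 has a narrower distribution, with known sites in heart and fat. RECK restrains MMPs at the cell surface and is also a co-receptor for WNT7 ligands. In the RefSeq annotation of GRCm38.p6, Timp1, Timp3 and Timp4 lie inside the spans of the synapsin genes Syn1, Syn3 and Syn2. No probe carried the symbol of a synapsin gene, so these hosts were not analysed here.

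Timp1 and Timp2 are the members that rose with AOM/DSS and fell with vanillin, so the 250 bases before their starts are shown, from RefSeq on GRCm38.p6, 5′ to 3′ along the gene. The Timp1 window is chrX:20869916-20870165 on the + strand, and the Timp2 window is chr11:118355412-118355661 on the - strand. Capitals mark a GC box (GGGCGG on either strand).
Timp1: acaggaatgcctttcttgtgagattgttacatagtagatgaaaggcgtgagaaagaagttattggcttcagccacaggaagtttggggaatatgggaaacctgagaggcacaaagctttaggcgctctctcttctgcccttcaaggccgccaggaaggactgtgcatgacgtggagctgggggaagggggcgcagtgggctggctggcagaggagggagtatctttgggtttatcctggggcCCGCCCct
Timp2: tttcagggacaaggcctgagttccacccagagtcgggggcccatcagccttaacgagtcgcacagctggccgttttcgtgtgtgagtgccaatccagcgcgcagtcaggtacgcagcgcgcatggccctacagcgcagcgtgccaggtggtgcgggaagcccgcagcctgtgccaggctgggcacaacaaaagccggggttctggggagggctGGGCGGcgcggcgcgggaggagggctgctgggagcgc
The windows differ in composition: Timp1 has 6 CG pairs and 54.4% G and C, and Timp2 has 21 CG pairs and 68.0% G and C, where the median over 32851 windows of the same length was 6 CG pairs. Each holds 1 GC box, which itself contains a CG pair, and 32.7% of all windows hold at least 1. Searched on both strands, neither window held the AP-1 motif TGANTCA (in 6.7% of all windows), the variant TGAGTAA (2.2%) or the Ets motif CCGGAA (12.0%). The STAT motif TTCNNNGAA (7.0%) and TATAAA (12.4%) were absent too. Only CCGGAA was searched for Ets: the shorter GGAA occurs in both windows and was not marked. Bases outside these windows were not searched. The motifs are a description of these letters only. RefSeq windows of Timp3, Timp4 and Reck were also matched and had 18, 2 and 19 CG pairs.

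Arrays of 1 group correlated at 0.995 to 0.998 over all probes, and arrays of different groups at 0.926 to 0.973. Of 10 colonocyte markers, 4 were higher and 3 lower in Sham against Mock, and 0 higher and 7 lower in Vanillin against Sham. Over all probes, 36.5% were higher and 23.2% lower in the first comparison, and 15.7% and 32.2% in the second. The summed intensity of the colonocyte markers was 206000 to 219000 in Mock, 178000 to 180000 in Sham and 162000 to 173000 in Vanillin. The groups also differed in markers of tissue other than colon mucosa. All 10 squamous epithelium markers were lower in Sham than in Mock, and their summed intensity was 441000 to 445000 in Mock, 23100 to 24100 in Sham and 282000 to 334000 in Vanillin. Of 10 adipocyte markers 8 were lower and 2 higher in Sham, with sums of 121000 to 123000, 22000 to 22900 and 107000 to 110000. All 5 skeletal muscle markers were lower in Sham, with sums of 108000 to 116000, 2760 to 2850 and 41800 to 47800. The keratin gene Krt1 and the adipokine gene Adipoq had mean intensities of 43.9 and 122 in Sham. Probes cannot read above the top of the intensity range, so sums that hold a probe near it are lower bounds: 2 squamous markers reached 65000 in Mock and in Vanillin, 1 colonocyte and 1 goblet cell marker in each group, 1 smooth muscle marker in Mock, and 1 fibroblast and 1 neutrophil marker in Vanillin. No marker was at 0 on the mean of a group. In such bulk samples, fewer cells of a type and less RNA per cell cannot be told apart.

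**Figure D1:**
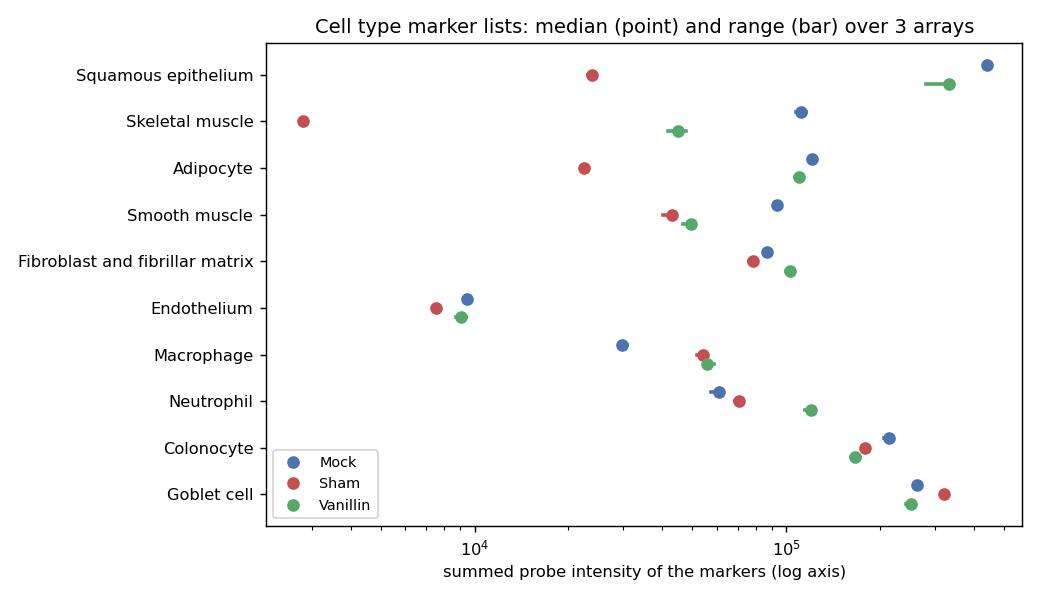
Summed probe intensity (log axis) of 10 cell type marker lists, with the median as a point and the range over the 3 arrays of a group as a bar. Squamous epithelium, skeletal muscle and adipocyte markers are low in Sham and high in Mock, with Vanillin between them; macrophage markers are low in Mock.

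Timp1 had the highest rise of the family after AOM/DSS. Its probe intensity was 998.1, 1063 and 987.8 on the 3 Mock arrays. On the Sham arrays it was 7533, 7600 and 7504. On the Vanillin arrays it was 5301, 4930 and 4923. The groups did not overlap, and Vanillin lay between Mock and Sham, closer to Sham. The means were 1020 ± 40.8 (SD, n = 3) in Mock, 7550 ± 49.3 in Sham and 5050 ± 216 in Vanillin. On the log2(intensity + 16) scale, on which all changes below are given with their standard error (SE), Timp1 rose by 2.87 in Sham against Mock (SE 0.051, adjusted p = 1.3e-10), or 7.33-fold. Only 119 of 26423 probes had a higher change. Against Sham, Timp1 fell by 0.58 in Vanillin (SE 0.051, adjusted p = 2.4e-05), a change of -33%. Against Mock it was still 4.91-fold higher in Vanillin (2.30, SE 0.051, adjusted p = 2.5e-09). Of 8 macrophage markers, 3 were higher and 1 lower in Sham against Mock, and 5 were higher and 0 lower in Vanillin against Sham. Of 8 neutrophil markers, 5 were higher and 3 lower in Sham against Mock, and 7 were higher and 0 lower in Vanillin against Sham. The shares of all probes that were higher are 36.5% and 15.7%, so the macrophage count in Sham against Mock is near the share of all probes. Their summed intensity was 29800 to 30800 in Mock, 51600 to 54200 in Sham and 55700 to 58900 in Vanillin for macrophages, and 57600 to 61900, 68700 to 70800 and 115000 to 123000 for neutrophils. Their part in the Timp1 result was not tested.

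**Figure D2:**
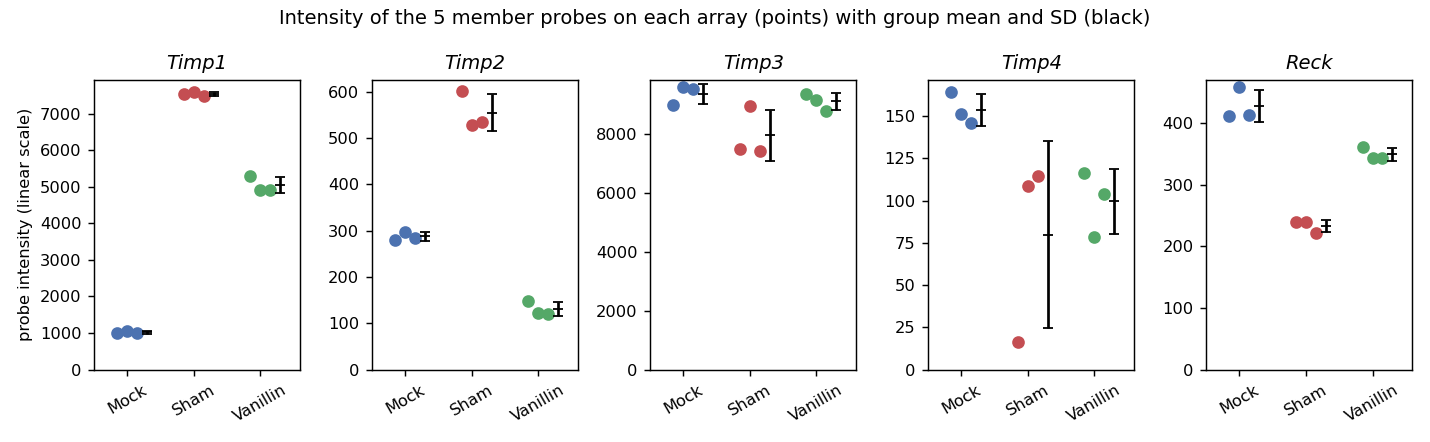
Probe intensity (linear axis from 0) of the 5 genes on each of the 9 arrays, with the group mean and SD in black. Timp1 is lowest in Mock, Timp2 is lowest in Vanillin, Reck is lowest in Sham, and 1 Sham array of Timp4 lies at 16.22.

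Timp2 moved the same way as Timp1 with AOM/DSS but ended below the untreated level with vanillin. The Mock arrays had intensities of 279.3, 298 and 285.3. The Sham arrays had 601.6, 528 and 535.8. In Vanillin it was 147.5, 122.2 and 121. Every Sham array was above every Mock array, and every Vanillin array was below both. Timp2 rose by 0.91 in Sham against Mock (SE 0.081, adjusted p = 9.8e-06), or 1.88-fold. It fell by 1.97 in Vanillin against Sham (SE 0.081, adjusted p = 1.2e-07), or 3.91-fold. The 95% interval of that change was -2.15 to -1.78. Against Mock, Vanillin was lower by 2.08-fold (-1.06, SE 0.081, adjusted p = 5.9e-06).

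Among falls with vanillin, that of Timp2 stood near the end of the whole array: 7 of 26423 probes fell further. By absolute change, in either direction, it ranked 505. With a pseudocount of 1 in place of 16 the number of probes that fell further was 15, and with 64 it was 8. Among the 7 at a pseudocount of 16, named after their values were seen, were probes of Cdkn2a at -2.38 (SE 0.061) and -2.16 (SE 0.075). Cdkn2a encodes cell cycle inhibitors. The Timp2 probe was of middling brightness (brighter than 47.5% of probes on average), and its mean of 130 in Vanillin was above 50, the level under which about 20.0% of probes per array fell. Goblet cell markers shared the order of Timp2: their summed intensity was 262000 to 266000 in Mock, 322000 to 330000 in Sham and 243000 to 252000 in Vanillin. Of these 8 markers, 4 were higher and 1 lower in Sham against Mock, and 6 were lower and 0 higher in Vanillin against Sham. Over all probes, 36.5% were higher and 23.2% lower in the first comparison, and 15.7% and 32.2% in the second. The median changes of the goblet cell markers were 0.18 and -0.47, against 0.10 and -0.09 over all probes. Fibroblast markers, of cells in which Timp2 is known to be expressed, had another order. Their sums were 86900 to 87900 in Mock, 75900 to 79400 in Sham and 100000 to 104000 in Vanillin. Of 9 measured, 4 were higher and 4 lower in Sham against Mock, and 7 were higher and 0 lower in Vanillin against Sham. Of the 10 colonocyte markers, 7 were lower and 0 higher in that comparison, with the sums given above. The part of these cell types in the Timp2 result was not tested.

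Timp3 was bright in every group and changed little. The Mock arrays read 8972, 9600 and 9519. The Sham arrays read 7480, 8946 and 7436, and the Vanillin arrays 9371, 9163 and 8788. The highest Sham array lay just below the lowest Mock array, and it overlapped the Vanillin range. Timp3 was lower by 0.24 on the log2 scale in Sham than in Mock (-0.24, SE 0.076, adjusted p = 0.023), a change of -15.3%. Larger absolute changes were common, since 41.4% of probes changed by less. This call was lost without Mock replicate 2, Mock replicate 3, Sham replicate 1 or Sham replicate 3 (adjusted p = 0.0674, 0.0672, 0.0772 and 0.0786). Vanillin against Sham gave 0.20 (SE 0.076, adjusted p = 0.058), which passed the threshold without Sham replicate 2 (0.29, adjusted p = 0.00438). Vanillin against Mock gave -0.04 with a 95% interval of -0.21 to 0.13 (adjusted p = 0.70).

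Timp4 was the dimmest member, and 1 Sham array set its spread. The Mock arrays had intensities of 164, 151 and 145.9. The Sham arrays had 16.22, 108.6 and 114.8. In Vanillin it was 116.2, 78.22 and 103.9. All Mock arrays were above all AOM/DSS arrays, while Sham and Vanillin overlapped. With all arrays, none of the changes was called: -1.07 in Sham against Mock (SE 0.46, adjusted p = 0.075), 0.50 in Vanillin against Sham (SE 0.46, adjusted p = 0.41) and -0.57 in Vanillin against Mock (SE 0.46, adjusted p = 0.34). Its residual SD was larger than that of 99.5% of probes. Without Sham replicate 1, the array at 16.22, Timp4 was lower in Sham than in Mock (-0.41, adjusted p = 0.0307) and in Vanillin than in Mock (-0.57, adjusted p = 0.00492), and Vanillin against Sham turned to -0.16. Without Sham replicate 2 or 3 the change in Sham against Mock was -1.38 and -1.42 (adjusted p = 0.0444 and 0.0347). On Sham replicate 1, 16 probes lay more than 2 log2 units from both other arrays of the group (the same number as on Mock replicate 1), and 6 to 15 did on the 7 other arrays.

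Reck ran opposite to Timp1 and Timp2 in the comparisons that include Sham. The Mock arrays had intensities of 412.4, 458.7 and 413.4. The Sham arrays had 239.1, 239.1 and 221.4. In Vanillin it was 362.2, 343.1 and 344. The groups did not overlap, with Mock highest, Vanillin next and Sham lowest. Reck fell by 0.83 in Sham against Mock (SE 0.059, adjusted p = 1.9e-06), a change of -43.9%. It was higher by 0.55 in Vanillin than in Sham (SE 0.059, adjusted p = 7.6e-05), or 46.8%. Against Mock, Vanillin remained lower (-17.6%, log2 change -0.28, SE 0.059, adjusted p = 0.0035). The squamous epithelium, adipocyte and skeletal muscle markers given above had this same order of groups, with median changes of -6.34, -4.27 and -5.23 in Sham against Mock and 5.51, 3.76 and 3.86 in Vanillin against Sham. All 6 smooth muscle markers were also lower in Sham against Mock and 4 were higher in Vanillin against Sham, with sums of 93500 to 94900 in Mock, 40400 to 43100 in Sham and 46600 to 49800 in Vanillin. Of 8 endothelial markers, 1 was higher and 4 lower in Sham against Mock and 5 were higher in Vanillin against Sham, with sums of 9340 to 9500, 7390 to 7700 and 8730 to 9420. Over all probes, 36.5% were higher and 23.2% lower in Sham against Mock, and 15.7% and 32.2% in Vanillin against Sham. The part of these tissues in the Reck result was not tested.

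**Figure D3:**
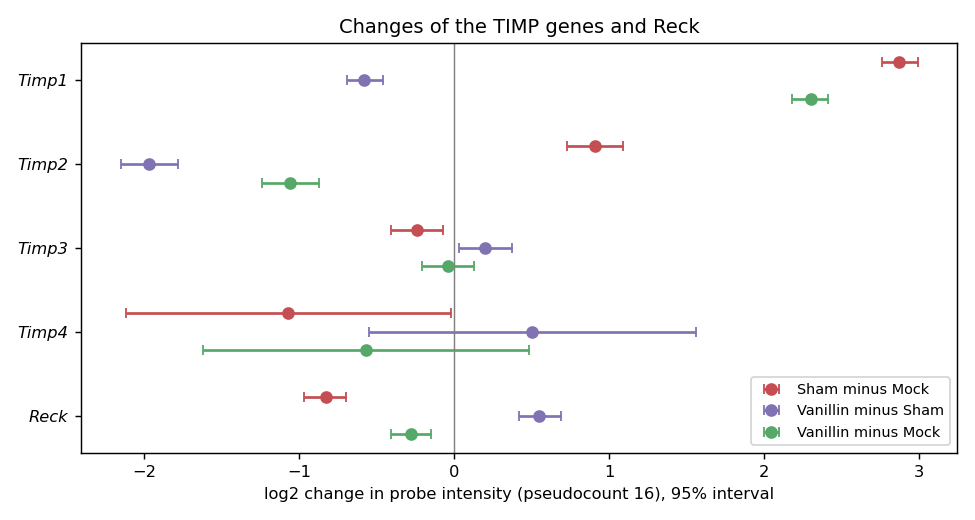
Log2 changes of the 5 genes in the 3 comparisons, with 95% intervals from the model over all 9 arrays. Timp1 is above 0 against Mock in both AOM/DSS groups, Timp2 changes sign between them, and the intervals of Timp4 are wide.

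Counted over the family, 4 of 5 genes were called in Sham against Mock, 2 higher (Timp1, Timp2) and 2 lower (Timp3, Reck), where 59.7% of all probes were called (36.5% higher and 23.2% lower). In Vanillin against Sham 3 of 5 were called, Timp1 and Timp2 lower and Reck higher, against 47.9% of all probes (15.7% higher and 32.2% lower). In Vanillin against Mock 3 of 5 were called, Timp1 higher and Timp2 and Reck lower, against 50.7% of all probes (24.5% higher and 26.2% lower). The arrays of the compared groups did not overlap for 5 of 5 genes in Sham against Mock (67.1% of all probes), 3 of 5 in Vanillin against Sham (56.3%) and 4 of 5 in Vanillin against Mock (60.4%). With 5 genes, nothing is read from these shares about the family as a whole. The comparisons share arrays: Sham enters the first 2 with opposite sign, which by itself turns their changes against each other.

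Of 21 measured MMP genes, the proteases that TIMPs block, 14 were higher, 1 lower and 6 not called in Sham against Mock, where 36.5% of all probes were higher (median change 0.67, against 0.10 over all probes). Mmp7, the epithelial matrilysin, rose by 8.24 (SE 0.068, adjusted p = 1.5e-12), and the stromelysin Mmp10 rose by 7.44 (SE 0.080, adjusted p = 5.7e-12). The collagenases Mmp8 and Mmp13 rose by 4.24 and 4.17 (SE 0.082 and 0.044), and the gelatinase Mmp9 by 2.31 (SE 0.10). Mmp14, the membrane protease that TIMP2 binds, rose by 1.19 (SE 0.057), and its substrate Mmp2 was not called (-0.26, SE 0.13, adjusted p = 0.13). In Mock the probes of Mmp7, Mmp8 and Mmp10 were dim (means of 26.0, 21.8 and 40.8), so the size of their rise moves with the constant added before the log: at 1 and at 64, settings added after the dim values were seen, Mmp7 rose by 8.88 and 7.15, Mmp8 by 4.94 and 3.15, and Mmp10 by 7.88 and 6.56.

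With vanillin the proteases moved both ways: 5 MMP genes were higher, 8 lower and 8 not called against Sham (median -0.08, against -0.09 over all probes). Of all probes 15.7% were higher and 32.2% lower, so the count of lower MMP genes is near the share of all probes. Mmp7, the enamel protease gene Mmp20 and Mmp3 fell by 1.07, 0.95 and 0.60 (SE 0.068, 0.061 and 0.058). Mmp9, Mmp2 and Mmp8 were higher by 0.69, 0.62 and 0.60 (SE 0.10, 0.13 and 0.082), in the comparison in which Timp1 and Timp2 fell. Mmp8 is also counted among the 8 neutrophil markers, of which 7 were higher and 0 lower there. The part of neutrophils in the MMP changes was not tested. Mmp14 fell by 0.18 (SE 0.057, adjusted p = 0.027), Mmp13 rose by 0.14 (SE 0.044, adjusted p = 0.028), and Mmp10 gave 0.05 (SE 0.080, adjusted p = 0.64). Against Mock, 12 of the 21 were higher and 1 lower in Vanillin, where 24.5% of all probes were higher and 26.2% lower.

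**Figure D4:**
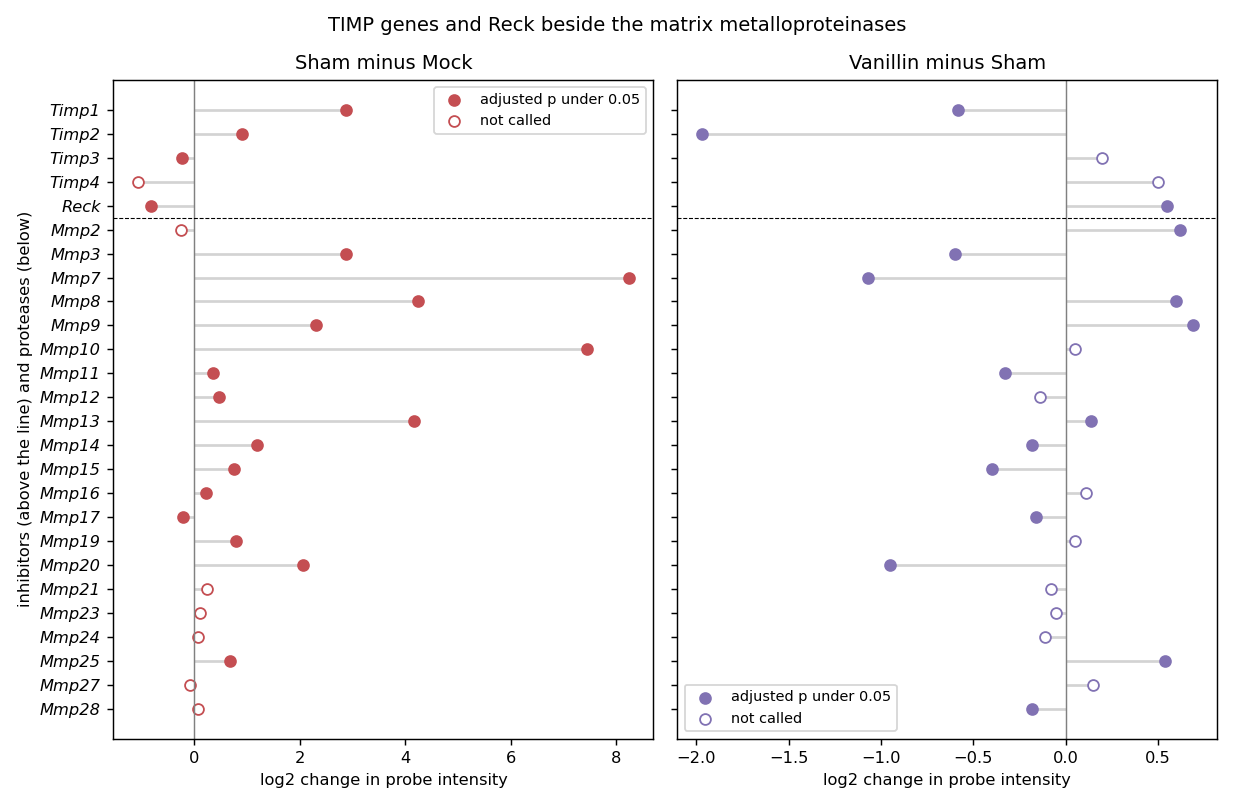
Log2 change of each inhibitor (above the dashed line) and each measured MMP gene (below it) in Sham against Mock and in Vanillin against Sham; filled points passed an adjusted p under 0.05, and the axes differ in range. Timp2 has the largest change among these genes in Vanillin against Sham (-1.97), and 14 MMP genes were called higher in Sham against Mock.

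ADAM and ADAMTS proteases, some of which TIMP3 inhibits, moved both ways. Of 13 measured, 6 were higher, 5 lower and 2 not called in Sham against Mock. The shares of all probes were 36.5% higher and 23.2% lower. The median change of the 13 genes was 0.16, against 0.10 over all probes. The largest changes were those of Adam12 (1.97), Adam28 (-1.66), Adam19 (1.50) and Adam15 (-1.03). The sheddase gene Adam17 gave -0.01 (SE 0.055, adjusted p = 0.90) in Sham against Mock, and Adam10, another sheddase, rose by 0.80 (SE 0.054). In Vanillin against Sham 4 were higher, 5 lower and 4 not called (median -0.12, against -0.09 over all probes). The shares of all probes were 15.7% higher and 32.2% lower. The aggrecanases differed in direction there: Adamts4 fell by 0.75, while Adamts1 and Adamts5 rose by 0.95 and 0.81.

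Genes of the proteins that bind TIMPs or RECK were measured for all 11 on the list. In Sham against Mock 5 were higher, 4 lower and 2 not called, where 36.5% of all probes were higher and 23.2% lower. Cd63, a tetraspanin that binds TIMP1, had the order of Timp1: it rose by 1.01 with AOM/DSS (SE 0.050, adjusted p = 1.7e-07) and fell by 0.49 with vanillin (SE 0.050, adjusted p = 6.3e-05). Efemp1, a matrix protein that binds TIMP3, fell by 1.50 and rose by 1.11 in the same comparisons (SE 0.077). Lrp1, the endocytic receptor that clears TIMPs and MMPs, fell by 0.54 and rose by 0.23 (SE 0.069). The ligand genes of which RECK is a co-receptor moved in opposite directions: Wnt7b fell by 0.96 with AOM/DSS and rose by 0.23 with vanillin (SE 0.072), and Wnt7a rose by 0.51 and fell by 0.17 (SE 0.042). In Vanillin against Sham 6 were higher, 2 lower and 3 not called, where 15.7% of all probes were higher and 32.2% lower. Efemp1, Lrp1 and Wnt7b were highest in Mock and lowest in Sham, as were the squamous epithelium, adipocyte and skeletal muscle sums. The part of these tissues in the changes of the binding partners was not tested.

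Signals known to induce Timp1 were mostly higher after AOM/DSS, with 10 of 16 higher, 3 lower and 3 not called (median 0.70). The cytokine genes Il1b, Il6 and Il11 rose by 3.87, 3.19 and 3.19, and Lif, of the IL-6 family, rose by 1.82. The share of all probes higher was 36.5%. With vanillin 5 were higher, 4 lower and 7 not called (median 0.04), so 9 of 16 were called where 47.9% of all probes were. Lif fell by 0.88 (SE 0.089, adjusted p = 5.6e-05), while Il6 gave 0.04 (SE 0.063, adjusted p = 0.61) and Il11 gave -0.19 (SE 0.15, adjusted p = 0.33). Il1b rose by a further 1.53. Osm, a cytokine of the IL-6 family named after its values were seen, rose by 0.96 with AOM/DSS and by 1.33 with vanillin (SE 0.18).

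The genes most like each called member were taken by Pearson correlation over the 9 arrays among 12472 named genes, as a description of patterns. The 3 group means largely set these patterns, except for Timp3. For Timp1 they were Mmp3, B4galnt4 and Afp, each at r = 0.999. Mmp3, the stromelysin that TIMP1 inhibits, rose by 2.88 (SE 0.058) with AOM/DSS and fell by 0.60 (SE 0.058) with vanillin, next to 2.87 and -0.58 for Timp1. The Mock arrays of Mmp3 read 391.2, 417.6 and 363.3, the Sham arrays 2897, 3047 and 3000, and the Vanillin arrays 1989, 1900 and 1993. Such high values were not rare, since 1455 genes reached 0.95 with Timp1. For Timp2 the nearest were Upb1 (0.997), Mgat3 (0.996) and Ivns1abp (0.995), and 281 genes reached 0.95. Upb1, a pyrimidine-breakdown enzyme, gave 0.71 and -1.64 in these comparisons. For Reck they were Pth1r, Gpam and Aldh6a1, each at 0.995, with 890 genes at 0.95 or more. For Timp3 they were Ndst1 (0.962), Taf9b (0.957) and Peg12 (0.952), and only 4 genes reached 0.95. These genes shared with Timp3 a higher value on Sham replicate 2 than on the other Sham arrays. The Sham arrays read 7480, 8946 and 7436 for Timp3, and 2652, 3116 and 2663 for Ndst1. Peg12 was dim, at 4.889, 75.67 and 5.444.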

How the data were processed

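The 9 arrays were grouped by their titles. The authors deposited 1 linear intensity per probe. Amplified RNA carried Cy5, per the labels' protocols, and limma appears in the submitters' processing notes without a role or version. The deposited values show background subtraction (3 to 14 values below 0 per array) and equal distributions (medians 319.6 to 320.1). For the scanner, the background method and any probe filter, the sources used here give nothing.

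Negative values were set to 0 and log2(value + 16) was taken, since raw intensity has no log at 0. The 9 arrays were fitted as 3 group means in R 4.3.3 (limma 3.58.1, lmFit then eBayes, two-sided), with Benjamini-Hochberg adjustment over all 26423 probes and calls at an adjusted p under 0.05. The fit was tested on simulated data. Alternatives were other pseudocounts, scalings, filters and variance models, and each array left out. Deviations of same-numbered arrays from their group means correlated at 0.13 to 0.20 between Sham and Vanillin, and at -0.29 to -0.02 between Mock and the other groups. Arrays of different number gave -0.20 to 0.00 between Sham and Vanillin, but Mock 1 and Vanillin 3 gave 0.21. The main fit did not pair arrays, and a fit with the number as a block was run as an alternative.

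Of the probes, 20377 have 1 platform gene symbol, 0 have several and 6046 have none. Of the named probes, 2126 were renamed through a synonym that fits 1 gene. A gene of a list is given by its brightest probe. Genes named from each list are up to 4 called members with the largest change in Sham minus Mock or Vanillin minus Sham, and proteases and partners that bear directly on TIMPs. The members and lists were chosen with earlier results of these data known. Plots came from matplotlib 3.10.9 (Python 3.11.15).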

Additional observations from a re-analysis of the deposited data

How the results depend on the processing

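Over the 3 comparisons, 15 changes of the 5 genes were recomputed under the alternatives, 272 values in all, of which 257 kept their side of the threshold, and 0 called directions turned. Every change of Timp1, Timp2 and Reck kept its direction and its call under each alternative run. Timp2 in Vanillin against Sham ranged from -2.09 (pseudocount 1) to -1.67 (pseudocount 64), and Timp1 in Sham against Mock from 2.82 to 2.91. The 15 exceptions belong to Timp3 and Timp4. Beside those given with the arrays left out, Timp3 in Vanillin against Sham passed the threshold with array weights, a pseudocount of 64, a trended and robust variance and without the dimmest 30% of probes (adjusted p = 0.0346, 0.0468, 0.0412 and 0.0438). Timp4 passed with array weights in Sham against Mock (adjusted p = 0.0433) and with only the 6 arrays compared in Vanillin against Mock (adjusted p = 0.00994), and it could not be fitted without the dimmest 30% of probes, which include it. With the replicate number as a block, 4, 3 and 3 genes were called in Sham against Mock, Vanillin against Sham and Vanillin against Mock, as without it. In the fit of only the Sham and Vanillin arrays with that pairing, an alternative chosen after seeing the data, 3 genes were called, and the block changed no other call. Counting every probe of a list changed no MMP count. Over all 18 probes of the ADAM and ADAMTS genes, 6 were higher and 8 lower in Sham against Mock, and 7 higher and 5 lower in Vanillin against Sham, which turns the balance given by 1 probe a gene in both (6 and 5, then 4 and 5). Over the 14 probes of the binding partners the counts were 8 and 4, then 8 and 3. Precision is limited by the number of arrays, 3 in each group.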

Other observations

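The plasminogen system, whose protease plasmin activates several pro-MMPs, was measured for 5 genes. Plaur, the urokinase receptor, rose by 2.74 in Sham against Mock (SE 0.086, adjusted p = 6.4e-09) and by a further 0.83 in Vanillin against Sham (SE 0.086, adjusted p = 6.6e-05). Plat, tissue plasminogen activator, rose by 2.52 and then fell by 0.28 (SE 0.050), while Plau, urokinase, fell by 0.66 with AOM/DSS. The inhibitor gene Serpinb2 fell by 5.21 in Sham against Mock (SE 0.064, adjusted p = 1.3e-11) and was higher by 4.83 with vanillin (SE 0.064, adjusted p = 4.1e-11), from a mean of 8080 in Mock to 202 in Sham, and 6210 in Vanillin. Squamous epithelium markers had the same order of groups (median changes -6.34 and 5.51), and their part in the Serpinb2 result was not tested.

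Among other protease inhibitor genes, Serpine2, protease nexin-1, rose in both comparisons, by 1.27 and 0.53 (SE 0.055), from a mean intensity of 3930 in Mock to 9530 in Sham and 13800 in Vanillin. Tfpi2, a Kunitz-type inhibitor, had the order of Timp1 (1.48 and -0.46, SE 0.095). Pzp, of the alpha-2-macroglobulin family, had the order of Reck (-1.63 and 0.93), at mean intensities of 102, 22 and 56.2. The squamous epithelium, adipocyte and skeletal muscle markers also had this order, and their part in the Pzp result was not tested.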
